A study of Mus musculus with 4 samples.

Results

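The constant genes of the antibody chains and the gene of the J chain were followed through whole mouse lung by single-cell RNA-seq. The genes were taken by name: Ighm, Ighd and Igha, which encode the constant parts of the mu, delta and alpha heavy chains, Igkc, which encodes that of the kappa light chain, Iglc1 and Iglc2, which encode those of lambda light chains, and Jchain. All 7 were present among the 20076 genes of the count matrix. Ighm, Ighd and Igha lie on chromosome 12 of mm10 (GENCODE M21), at chr12:113418558-113422730, chr12:113406604-113416324 and chr12:113254830-113260236, all on the minus strand. Igkc lies at chr6:70726435-70726966 on the plus strand. Iglc1 and Iglc2 lie at chr16:19061618-19062071 and chr16:19198396-19200351, and Jchain at chr5:88519809-88527891, all on the minus strand.

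A B cell joins a variable segment to one of these constant genes and carries the product on its surface as the B cell receptor, together with the signalling chains Cd79a and Cd79b. A resting mature B cell makes mu and delta heavy chains from a single transcript that is spliced in alternative ways, and after class switching it makes another class such as alpha. Plasma cells secrete the antibody, and the J chain links the units of secreted IgA and IgM into polymers, which the receptor encoded by Pigr carries across epithelia such as that of the airways.

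Libraries came from 4 mice, with 2 libraries in each group. WT libraries came from ERG fl/fl mice, which carry floxed Erg alleles and no Cre, and ERG CKO libraries came from CDH5-CreER(T):ERG fl/fl mice, in which a tamoxifen-inducible Cre is driven by the endothelial Cdh5 promoter. All animals, WT included, received 5 daily injections of 0.5 mg tamoxifen, and whole lungs were taken 90 days later. The Cre line was kept on a C57/BL6 background with both sexes used, and the age of these mice is not given in the sources used here. Because the WT mice had no Cre, effects of Cre itself and of the loss of Erg cannot be told apart. WT and ERG CKO below name the labels of the libraries, because the deleted gene did not separate them: in endothelial cells, Erg had 86.9 and 91.9 CPM (UMIs per 1000000 UMIs of the same library and class) in WT and 107 and 82.6 CPM in ERG CKO, a log2 fold change of 0.06 (SE 0.16, adjusted p = 0.911, edgeR). The part of Erg that was deleted and the part that was counted are not given in the sources used here, so this check may say nothing of the deletion.

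The matrix held 2264 and 2150 barcodes in WT, compared with 3097 and 1852 in ERG CKO, with 11263911 to 18646776 UMIs per library and medians of 4611 to 4899 UMIs per barcode. These are more barcodes than the study kept after its own filter. Of the barcodes, 7 occurred in more than 1 library, and 60 (0.641%) were called doublets. B cells were 1 cluster of 831 barcodes, found without any immunoglobulin gene or Jchain among the clustering genes, and all 8 B cell markers of a fixed list, Cd79a, Cd79b and Pax5 among them, marked it. With 4 of its barcodes set aside by a gate described below, B cells were 174 of 2264 barcodes in WT replicate 1 (7.69%, 95% Wilson interval 6.66 to 8.86), 209 in WT replicate 2 (9.72%, 8.54 to 11.05), 251 in ERG CKO replicate 1 (8.10%, 7.19 to 9.12) and 193 in ERG CKO replicate 2 (10.4%, 9.11 to 11.9). The groups overlapped, and the difference of 0.56 percentage points had an exact permutation p of 0.667 (two-sided), where the design cannot go below 0.33. Each interval covers counting error only.

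Igha, Jchain and Igkc were far higher in the B cell cluster of the ERG CKO libraries, and 4 barcodes there held nearly all of the difference. A 5th barcode of the same kind lay in another cluster. Before these were set aside, Igha had 13.3 and 0 CPM in the B cells of WT and 5771 and 5561 CPM in those of ERG CKO. Jchain had no UMI in the B cells of either WT library and 3239 and 1463 CPM in ERG CKO, at least 630-fold more than the level of 3 UMIs per WT library would give. Igkc had 9295 and 9809 CPM in WT and 23605 and 22868 CPM in ERG CKO, a mean 2.43-fold higher. In none of the 3 genes did the groups overlap, as in 33.5% of all genes tested. With edgeR and Benjamini-Hochberg adjustment over all genes tested, Igha changed by 9.998 on the log2 scale (SE 0.53, adjusted p = 3.0e-11), Jchain passed with the same adjusted p, and Igkc changed by 1.32 (SE 0.20, adjusted p = 0.0011). Jchain passed the filter on low counts only through the ERG CKO libraries, so its test against a count of 0 adds nothing to its values. Beside Jchain, Igha and Igkc passed, both higher in ERG CKO. In this fit 20 of 6825 genes passed (0.293%), 15 of them higher (0.22%) and 5 lower (0.0733%). DESeq2 passed the same 3 members among 7 genes in all (0.103%).

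A gap in the Jchain counts marked out the 5 barcodes. Each had at least 363 Jchain UMIs, whereas the highest count among the other 9358 barcodes was 2, and 81 of those had any. They are called Jchain-rich below; they were chosen after the counts were seen, on Jchain itself, so their levels are given as a description with no test. All 5 came from libraries labelled ERG CKO: 4 of 3097 barcodes in replicate 1 (0.129%, Wilson 0.0502 to 0.332) and 1 of 1852 in replicate 2 (0.0540%, 0.00953 to 0.305). In WT, 0 of 2264 and 0 of 2150 barcodes were Jchain-rich, which allows shares of up to 0.133% and 0.140%, so the WT lungs could have held such cells at a similar share. These counts do not separate the groups.

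The 5 barcodes resembled each other in genes of secretion and differed in their antibody genes. The 1st, from ERG CKO replicate 1, held 31599 UMIs, of which 11696 were Igkc, 5302 Igha and 3048 Jchain, and immunoglobulin genes with Jchain made up 64.0% of its UMIs. The 2nd, from the same library, held 6741 Igkc, 2790 Igha and 1130 Jchain UMIs of 24165. The 3rd lay outside the B cell cluster, in the cluster of proliferating cells, with 2365 Igkc, 874 Igha and 374 Jchain UMIs of 33015. It also held 14 UMIs of Mki67 and 6 of Top2a, which dividing cells express, and its immunoglobulin share was 11.2%.

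The 4th barcode of ERG CKO replicate 1 carried mu in place of alpha. It held 487 Ighm UMIs and no Igha UMI, with 2668 Igkc and 363 Jchain UMIs of only 5259. The 5th, the single one of ERG CKO replicate 2, held 12577 Igkc, 5238 Igha and 1382 Jchain UMIs of 28267. In the 4 barcodes with Igha there was no UMI of Ighm, and in all 5 there was none of Ighd. All 5 were thus rich in kappa rather than lambda, with at most 53 UMIs of Iglc1 and 88 of Iglc2, and the 1st also held 25 UMIs of Ighg1. None was called a doublet.

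Each of the 5 carried its own pair of variable genes. The leading heavy and kappa variable genes were Ighv1-20 (26 UMIs) with Igkv13-84 (6 UMIs) in the 1st, Ighv13-2 (39) with Igkv8-28 (43) in the 2nd, and Ighv1-55 (2) with Igkv4-59 (6) in the 3rd. They were Ighv8-12 (5) with Igkv8-27 (7) in the 4th, and Ighv5-9-1 (22) with Igkv8-30 (38) in the 5th. The next variable gene of either kind had at most 1 UMI in every one of them. No gene of a pair occurred as the leading gene of another barcode, so the 5 did not share a leading rearrangement.

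Of 10 plasma cell markers (Sdc1, Tnfrsf17, Derl3, Mzb1, Xbp1, Prdm1, Fkbp11, Txndc5, Creld2 and Edem2), the 1st to the 3rd barcode had all 10, the 5th had 9 and the 4th had 6. Mzb1, a chaperone of antibody assembly, ranged from 14 to 104 UMIs, and Xbp1, which drives the secretory programme, from 1 to 62. Tnfrsf17, a survival receptor of plasma cells, had 5 to 14 UMIs in the 4 barcodes with Igha and none in the 4th. The mature B cell genes Pax5, Cd22, Bank1 and Fcmr had no UMI in any of the 5, and Ms4a1 had none except 2 UMIs in the 3rd. Ccr10, a chemokine receptor of IgA-secreting cells, had 6 to 9 UMIs in the 4 barcodes with Igha and none in the one with Ighm.

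**Figure D1:**
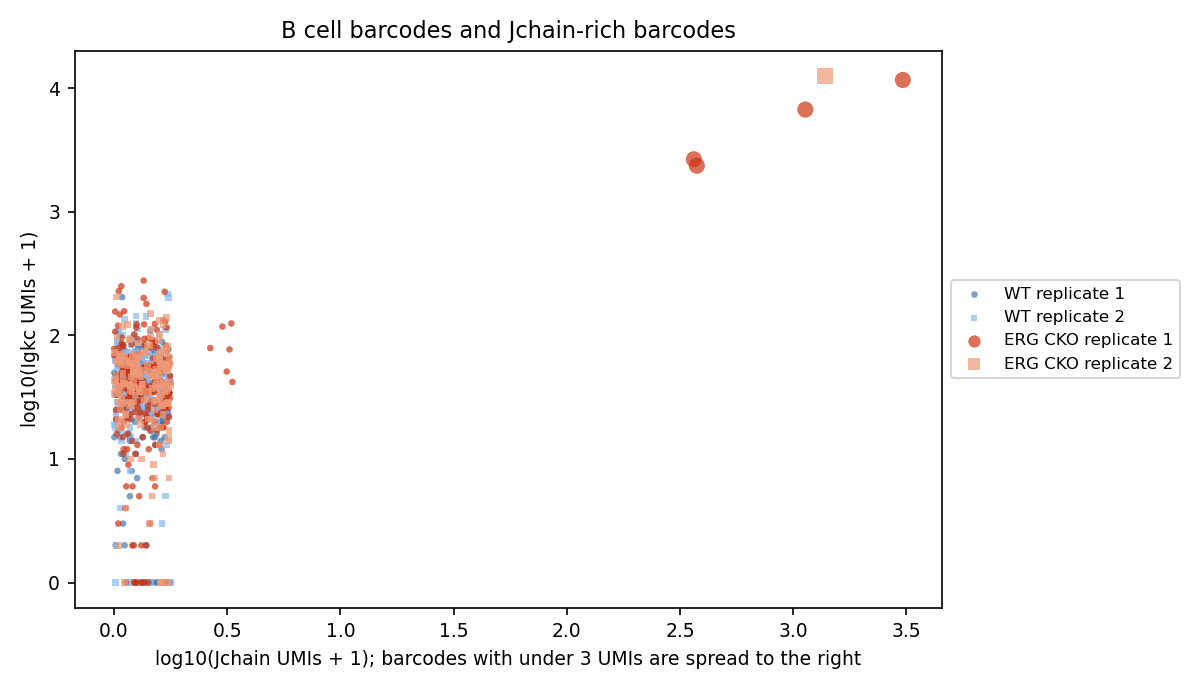
Each point is a barcode of the B cell cluster or a Jchain-rich barcode, with log10(Jchain UMIs + 1) on the x axis and log10(Igkc UMIs + 1) on the y axis, coloured by library. Points with under 3 Jchain UMIs are spread to the right for display. The 5 large points, all from ERG CKO libraries, lie at 363 Jchain UMIs or more, and every other point has at most 2.

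A gate fixed for plasma cells (at least 4 of the 10 markers, with Sdc1 or Tnfrsf17, and fewer than 2 markers of plasmacytoid dendritic cells) did not find these barcodes. It held 63 barcodes, 23 and 8 in WT, compared with 23 and 9 in ERG CKO, and 0 of the 5 Jchain-rich ones were among them. Of the 63, 38 were epithelial cells and 4 lay in the B cell cluster. Tnfrsf17 had no UMI in any of them, and Jchain and Igha had at most 1 UMI per barcode. Their median was 4 UMIs of Sdc1, which epithelial cells also express, and 3 UMIs of the epithelial gene Epcam. The barcodes of the gate are therefore not called plasma cells and were left out of the B cells, of the barcodes outside B cells and of every other class. The Jchain-rich barcodes with Igha had 2 or 3 of the plasmacytoid markers, among them Tcf4 and Ccr9, and the one with Ighm lacked Sdc1 and Tnfrsf17.

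Without the 5 barcodes, no member passed the test in B cells. Igha fell to 9 UMIs in each of WT replicate 1 and ERG CKO replicate 1, none in WT replicate 2 and 14 in ERG CKO replicate 2, that is 13.3, 0, 6.70 and 15.3 CPM. Its log2 fold change was then 0.91 (SE 0.81, adjusted p = 0.953), and the groups overlapped. Igkc had 9295 and 9809 CPM in WT and 8961 and 9845 CPM in ERG CKO, a log2 fold change of -0.01 (SE 0.20, adjusted p = 0.9999). Jchain was left with 6 UMIs, all in ERG CKO replicate 1 and 1 per cell, and did not pass the filter on low counts. Of the 7 members 6 were tested, and 0 passed, in a fit where 6 of 6703 genes passed (0.0895%) and 390 had an unadjusted p under 0.05. DESeq2 also passed 0 members there, and 4 of 6703 genes (0.0597%).

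**Figure D2:**
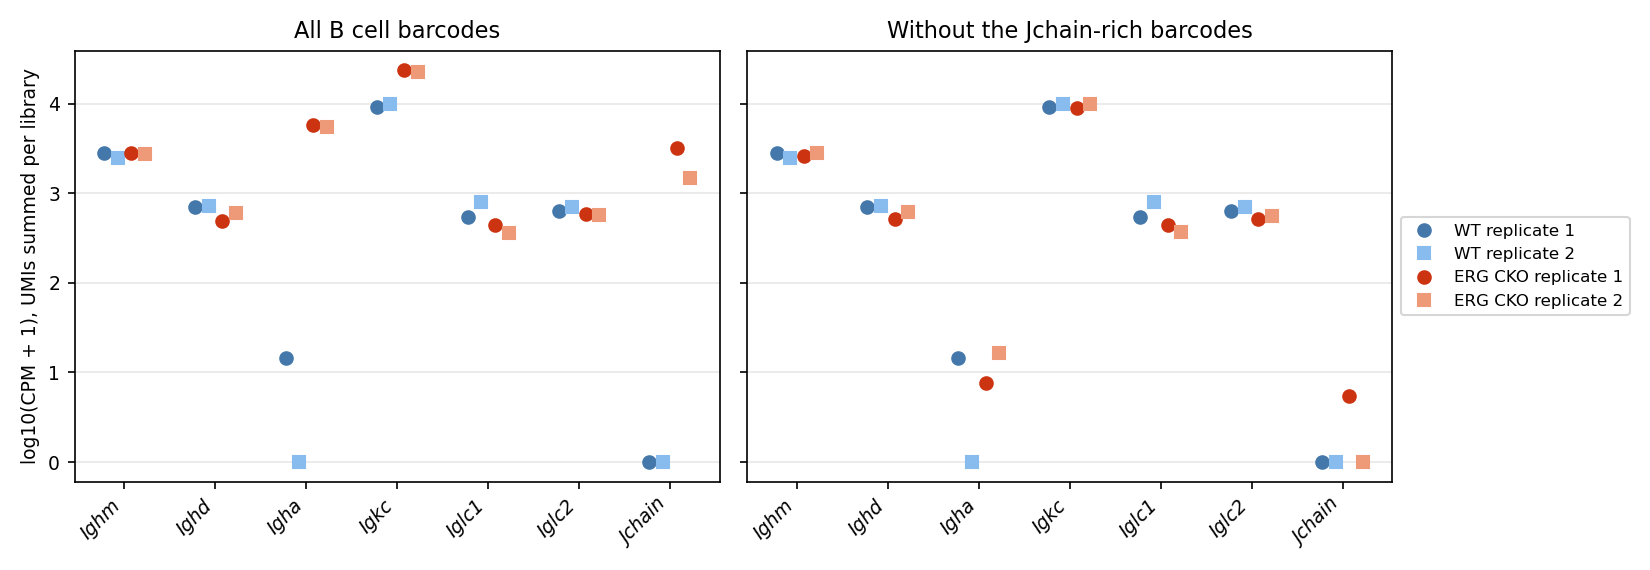
The level of each member in B cells, as log10(CPM + 1) of the UMIs summed per library, with 1 point per library. The left panel holds all barcodes of the B cell cluster and the right panel leaves out the Jchain-rich ones. Igha, Jchain and Igkc part the groups on the left, and Igkc lies between 8961 and 9845 CPM in all 4 libraries on the right.

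In the other B cells, Ighm, counted without the 5 barcodes, had 2832 and 2483 CPM in WT and 2605 and 2823 CPM in ERG CKO, so the groups overlapped (log2 fold change 0.05, SE 0.21, adjusted p = 0.999). Ighd had 709 and 721 CPM in WT and 518 and 615 CPM in ERG CKO. The 2 ERG CKO libraries were the lower ones for Ighd, but the change of -0.33 (SE 0.22, adjusted p = 0.910) did not pass, and the groups failed to overlap in 33.2% of all genes tested. For each Ighd UMI there were 3.99 and 3.44 Ighm UMIs in WT, compared with 5.03 and 4.59 in ERG CKO.

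Per cell, the median was 8 and 10 Ighm UMIs in WT, compared with 10 and 11 in ERG CKO, and 2 and 3 Ighd UMIs in WT and 2 in each ERG CKO library. Ighm was detected in 96.6% to 98.1% of B cells per library, and Ighd in 81.9% to 92.8%. UMIs of both were found in 82.2% and 92.3% of B cells in WT, compared with 81.5% and 86.5% in ERG CKO. After each cell was thinned to 1000 UMIs, with 3 to 7 shallower B cells per library left out, Ighm was found in 82.6% to 87.8% of B cells and in 0.144% to 1.09% of endothelial cells. Median depths before thinning were 3936 to 5008 UMIs in B cells and 3980 to 5488 in endothelial cells. Gene-level counts do not separate the membrane form of a heavy chain from its secreted form.

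Few B cells showed a switched class. Leaving out the Jchain-rich barcodes, Igha was detected in 1 of 174 and 0 of 209 B cells in WT and in 8 of 248 and 4 of 192 in ERG CKO. Only 2 of these cells had 5 or more Igha UMIs: 1 in WT replicate 1 with 9 and 1 in ERG CKO replicate 2 with 11, and neither had a UMI of Ighm, Ighd or Jchain. The remaining ones had at most 2, and in ERG CKO replicate 1 their share of 3.23% (Wilson 1.64 to 6.24) stood beside the 3.16% (2.56 to 3.89) with an Igha UMI among barcodes outside B cells that held no B cell gene. Of the gamma heavy chains, which mark IgG, at least 5 UMIs were found in 0 and 3 B cells in WT, compared with 2 and 2 in ERG CKO. In these 7 cells the leading gamma gene was Ighg2b, with 5 to 34 UMIs. Ighm reached 62 and 67 UMIs in 2 of the 7 and at most 3 in the others.

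Kappa cells far outnumbered lambda cells in every library. A B cell with at least 3 light chain UMIs was counted as lambda where Iglc1, Iglc2 and Iglc3 together exceeded Igkc. Lambda cells were 7 of 164 (4.27%, Wilson 2.08 to 8.55) and 13 of 205 (6.34%, 3.74 to 10.5) in WT, and 14 of 240 (5.83%, 3.51 to 9.55) and 11 of 191 (5.76%, 3.25 to 10.02) in ERG CKO. The WT libraries lay on either side of the ERG CKO libraries, and the mean difference of 0.49 percentage points had an exact permutation p of 1 (two-sided). In kappa cells the median Igkc count per library was 35 to 46 UMIs, and in lambda cells it was 0 to 2, with 32 to 52 lambda UMIs.

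**Figure D3:**
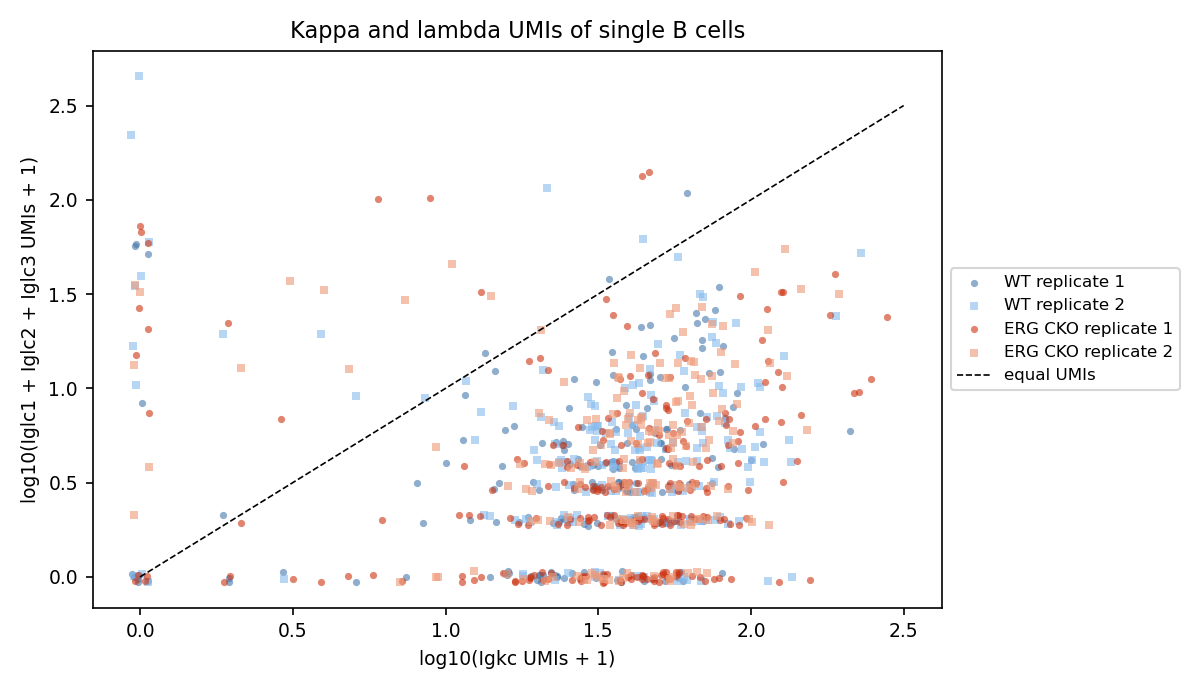
Light chain UMIs of single B cells without the Jchain-rich barcodes, with log10(Igkc UMIs + 1) on the x axis and log10 of the summed Iglc1, Iglc2 and Iglc3 UMIs + 1 on the y axis, coloured by library and with a small random shift. Cells above the dashed line of equal UMIs were counted as lambda, and they were 4.27% to 6.34% of the cells of a library.

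Iglc1 and Iglc2 were lower in both ERG CKO libraries, by less than the test could separate. Iglc1 had 539 and 807 CPM in WT and 440 and 373 CPM in ERG CKO without the 5 barcodes (log2 fold change -0.73, SE 0.25, adjusted p = 0.742). Single cells weighed on these values: 1 cell of WT replicate 2 held 257 Iglc1 UMIs, 32.0% of that library's, and 1 cell of ERG CKO replicate 1 held 130, 22.0%. With the highest cell of each library left out, and all other barcodes kept, the change was -0.44 (adjusted p = 0.774). Without WT replicate 1 it was -1.05 (adjusted p = 0.015, edgeR), which rests on a single WT library. Iglc2 had 626 and 699 CPM in WT and 520 and 552 CPM in ERG CKO (log2 fold change -0.30, SE 0.22, adjusted p = 0.930).

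Iglc2 counts are uncertain, because the gene has a near copy, Iglc3 (chr16:19065230-19065681, minus strand). To show how much of the sequence could tell the 3 lambda genes apart, the last 120 coding bases of each, stop codon included, are given from GENCODE M21, in mm10 and on the minus strand, 5′ to 3′. Capitals mark bases that differ from Iglc2. The stretches lie at chr16:19198536-19198655 (Iglc2), chr16:19065365-19065484 (Iglc3) and chr16:19061752-19061871 (Iglc1).
Iglc2: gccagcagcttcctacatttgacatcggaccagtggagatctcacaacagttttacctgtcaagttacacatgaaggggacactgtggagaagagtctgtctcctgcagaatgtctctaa
Iglc3: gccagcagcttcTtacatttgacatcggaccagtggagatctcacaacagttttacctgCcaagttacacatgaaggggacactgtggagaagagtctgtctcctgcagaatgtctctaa
Iglc1: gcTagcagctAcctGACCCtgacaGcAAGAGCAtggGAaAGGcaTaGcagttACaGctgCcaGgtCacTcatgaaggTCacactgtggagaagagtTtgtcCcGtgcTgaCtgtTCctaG
In these stretches Iglc3 differed from Iglc2 at 2 bases and Iglc1 at 39. Over the whole coding part the identity was 96.2% between Iglc2 and Iglc3 and 73.3% between Iglc1 and Iglc2. Reads of the coding part from Iglc2 and Iglc3 may therefore have been split or set aside by the counting, whereas that part of Iglc1 differed at more bases. Bases after the stop codon were not compared, and which bases the reads covered is not known here.

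The lambda genes also differed in where their UMIs lay among B cells. Of the 45 lambda cells, pooled over libraries, Iglc1 led in 31, with a median of 24 Iglc1 UMIs and 1 Igkc UMI, and Iglc2 or Iglc3 led in 14, with a median of 30 Iglc2, 2 Iglc3 and 0 Igkc UMIs. In the 755 kappa cells at least 1 UMI was found for Iglc2 in 57.7%, for Iglc3 in 63.7% and for Iglc1 in 24.1%. Kappa cells held 1178 Iglc3 UMIs in all, against 81 in each kind of lambda cell, whereas they held 686 Iglc1 UMIs against 1255 in the lambda cells led by Iglc1. After thinning to 1000 UMIs, Iglc2 was found in 18.9% to 34.7% of B cells per library and in 0% to 0.529% of T cells. Low Iglc2 and Iglc3 counts thus went with most kappa B cells and not with T cells.

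Around the members, no gene of the B cell receptor pathway passed. All 15 genes of the list of the receptor complex and its signalling were tested with all barcodes kept, and 0 passed. Their median log2 fold change was 0.01, against -0.0002 for all 6825 genes. Cd79a, the signalling chain, had 2590 and 2950 CPM in WT and 2259 and 2856 CPM in ERG CKO, and Cd79b 1130 and 1188 CPM in WT and 1066 and 1163 CPM in ERG CKO. The adaptor gene Bank1 (log2 fold change 0.16, SE 0.22, adjusted p = 0.966) and the kinase gene Syk (0.02, SE 0.21, adjusted p = 0.996) did not pass either. Of 8 transcription factors of B cells, among them Ebf1, Pou2f2, Pax5 and Irf8, 0 passed, with a median of -0.12. Of the switching list 3 of 4 genes were tested and 0 passed.

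The secretion list held 1 gene, Xbp1, that passed with the Jchain-rich barcodes and not without them, and the list as a whole was not tested. Of its 14 genes 10 were tested with all barcodes kept and 1, Xbp1, passed, with 45.9 and 36.2 CPM in WT and 108 and 69.9 CPM in ERG CKO (log2 fold change 1.2, SE 0.25, adjusted p = 0.032). The list's median was 0.38. Hspa5, a chaperone of the endoplasmic reticulum, had 751 and 679 CPM in WT and 648 and 610 CPM in ERG CKO, and did not pass (adjusted p = 0.977). Mzb1 had 246 and 304 CPM in WT and 395 and 329 CPM in ERG CKO (0.43, SE 0.22, adjusted p = 0.783). Without the 5 barcodes 9 genes of the list were tested, 0 passed, and the median was -0.16. Of the other constant genes Iglc3 and Ighg2b were tested and did not pass. Iglc3 had 320 and 407 CPM in WT and 269 and 422 CPM in ERG CKO.

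Of the 10 genes of smallest p in the B cell fit, 3 were the members Jchain, Igha and Igkc. The 5 genes Lgals1, Ahnak, S100a6, Crip1 and Myadm, with Il9r, were also higher in ERG CKO and, unlike the members, passed with and without the 5 barcodes. Crip1 had 409 and 466 CPM in WT and 1227 and 1306 CPM in ERG CKO, and its log2 fold change was 1.57 (adjusted p = 0.0011) with them and 1.44 (adjusted p = 0.010) without them. The hemoglobin gene Hba-a1 was lower, through 1 WT library (adjusted p = 0.0085, and 0.062 without the 5 barcodes), with 8.88 and 1927 CPM in WT and 14.2 and 2.12 CPM in ERG CKO.

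Outside the B cells, the members were counted first in all other barcodes except the 63 of the plasma gate and then in the 8134 of them with no UMI of any of 4 B cell genes, Cd79a and Cd79b among them, and without the 5 Jchain-rich ones, since some of the others carried B cell RNA. With the Jchain-rich barcode of the proliferating cluster left out, at least 2 of the 4 B cell genes were found in 6 and 8 of the other barcodes in WT, compared with 21 and 3 in ERG CKO. These few held 86.2% and 73.2% of the Igkc UMIs outside B cells in WT, and 77.6% and 55.4% in ERG CKO, but only 12.1% and 12.1% of the Ighm UMIs in WT, and 44.2% and 17.6% in ERG CKO. In single droplets a B cell caught with another cell cannot be told apart from a cell that carries both sets of genes.

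With all other barcodes, 0 of 7 members passed, and 0 of all 13812 genes (0%) in edgeR, with 967 at an unadjusted p under 0.05. DESeq2 passed 152 genes (1.1%) and 0 members. Igha had 0.965 and 0.253 CPM in WT and 58.3 and 2.46 CPM in ERG CKO, and Jchain 0.297 and 0.0845 CPM in WT and 25.7 and 1.38 CPM in ERG CKO. Both were higher in both ERG CKO libraries, and groups did not overlap in 34.3% of all genes. The high values of ERG CKO replicate 1 included the Jchain-rich barcode of the proliferating cluster.

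In barcodes with no B cell gene, Igha and Jchain were low in every class and higher in the libraries that held Jchain-rich barcodes. Igha had 13 and 3 UMIs in WT, compared with 90 and 23 in ERG CKO, which is 1.01, 0.273, 5.87 and 2.42 CPM. Barcodes with an Igha UMI were 5 of 2004 (0.250%, Wilson 0.107 to 0.583) and 3 of 1850 (0.162%, 0.0552 to 0.476) in WT, and 85 of 2690 (3.16%, 2.56 to 3.89) and 23 of 1590 (1.45%, 0.966 to 2.16) in ERG CKO. The log2 fold change of Igha was 2.67 (SE 0.68, adjusted p = 0.453, edgeR), larger than the spread within groups but not past the threshold. Jchain had 4 and 1 UMIs in WT, compared with 55 and 13 in ERG CKO, or 0.312, 0.0909, 3.59 and 1.37 CPM (log2 fold change 3.57, SE 0.78, adjusted p = 0.381). As in B cells, Jchain passed the filter on low counts only through the ERG CKO libraries, so its test adds nothing to its values. No barcode of this set held more than 4 Igha or 2 Jchain UMIs.

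These UMIs were spread over unrelated cell types. Of 13 classes and clusters with at least 20 cells in each library, Igha was found in 3 and 3 in WT, compared with 12 and 7 in ERG CKO, and Jchain in 3 and 1 in WT, compared with 11 and 4 in ERG CKO. In ERG CKO replicate 1, Igha had 4.74 CPM in endothelial cells, 5.19 in alveolar macrophages, 6.28 in T cells, 6.34 in monocytes and 8.43 in NK cells. In ERG CKO replicate 2 it had 2.71 CPM in endothelial cells, 2.67 in alveolar macrophages, 2.0 in T cells and 4.29 in monocytes. In WT replicate 1, 29.9 CPM stood out in cluster 16, a cluster of 17 to 77 such barcodes per library led by Mgl2, Cd209a and Ccl17, where 7 of 34 member UMIs were Igha. Igha had 3.74 and 3.70 CPM in that cluster in ERG CKO, so the order of the libraries did not hold in every class.

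The ratio of the 2 genes outside B cells was near that of the Jchain-rich barcodes of the same library in 1 of 2 cases. Of the Igha and Jchain UMIs together, 62.1% (Wilson 54.0 to 69.6) were Igha in the barcodes with no B cell gene of ERG CKO replicate 1, and 64.6% in its Jchain-rich barcodes. In ERG CKO replicate 2 the shares were 63.9% (47.6 to 77.5) and 79.1%, so the share outside was the lower one. Igkc moved in the same direction, with 2.81 and 6.001 CPM in WT and 20.8 and 12.1 CPM in ERG CKO (log2 fold change 1.93, SE 0.44, adjusted p = 0.391). Whether RNA released by the Jchain-rich cells gave these UMIs was not tested.

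**Figure D4:**
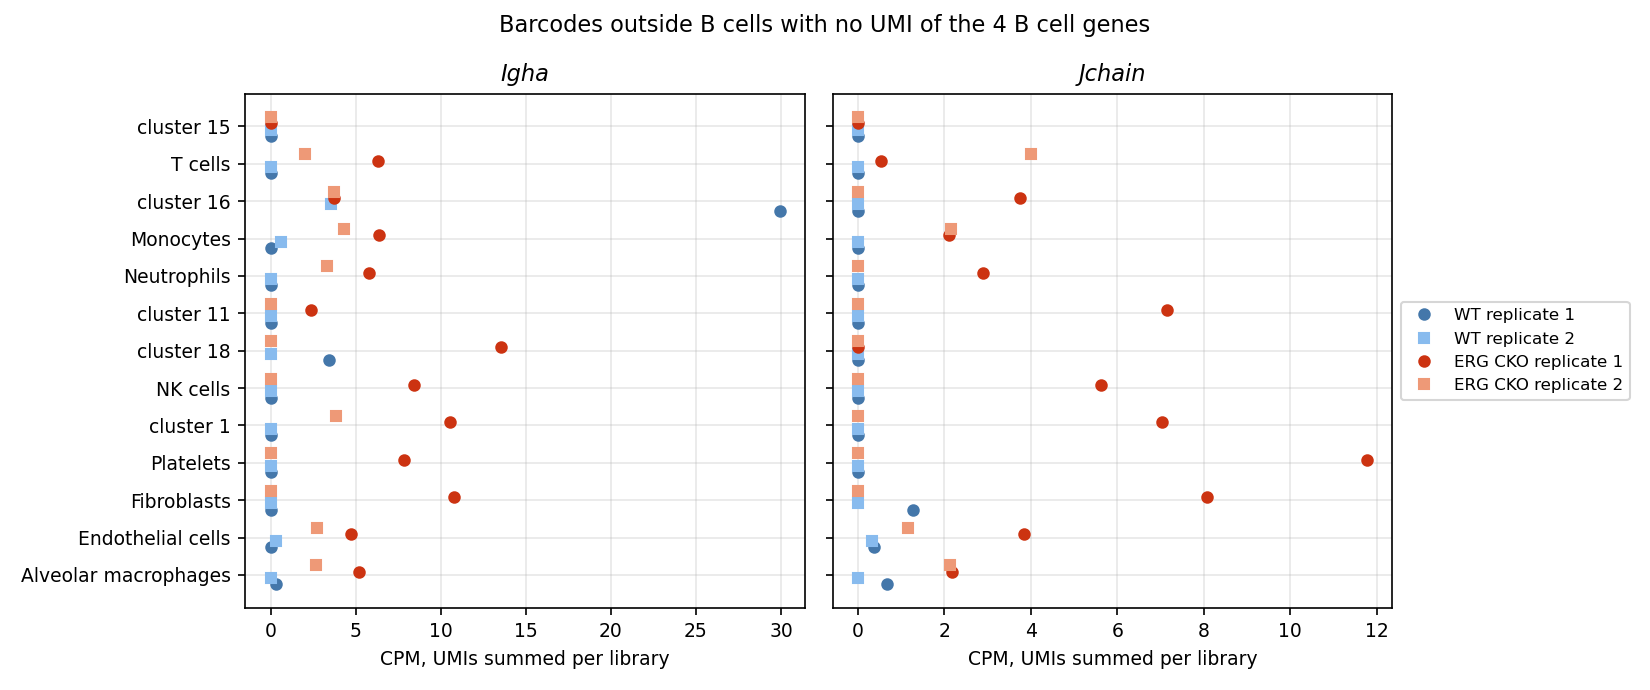
Igha (left) and Jchain (right) in CPM of the UMIs summed per library, in 13 classes and clusters outside B cells, counted in barcodes with no UMI of the 4 B cell genes and without the Jchain-rich ones. In ERG CKO replicate 1 a value above 0 is found in 12 classes for Igha and 11 for Jchain, against 3 in WT replicate 1 for either gene.

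Ighm was spread unevenly over the cell types. In all barcodes outside B cells it had 46.0 and 58.5 CPM in WT and 87.5 and 60.5 CPM in ERG CKO (log2 fold change 0.51, SE 0.22, adjusted p = 0.755). In barcodes with no B cell gene it had 38.5 and 47.5 CPM in WT and 47.9 and 46.3 CPM in ERG CKO, so the groups overlapped (log2 fold change 0.14, SE 0.15, adjusted p = 0.990), and it was found in 14.1% to 15.8% of barcodes per library. In T cells it had 132 and 120 CPM in WT and 130 and 123 CPM in ERG CKO. Monocytes had 106 and 111 CPM in WT and 83.9 and 117 CPM in ERG CKO, and NK cells 34.2 and 35.2 CPM in WT and 39.4 and 33.6 CPM in ERG CKO. Endothelial cells had 4.37 and 1.60 CPM in WT and 5.42 and 2.32 CPM in ERG CKO, and alveolar macrophages 0.683 to 5.19 CPM.

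Among the 13 classes and clusters with at least 20 cells in each library, ordered by mean Ighm level, cluster 15 (led by Ctla4, Tnfrsf4 and Ikzf2) came first with 118 to 165 CPM, followed by T cells, cluster 16, monocytes and neutrophils, which ranged from 31.8 to 137 CPM. The ranges over libraries of the first 4 overlapped or touched those of their neighbours, and that of neutrophils spanned many others. NK cells, at 33.6 to 39.4 CPM, lay above endothelial cells, fibroblasts and alveolar macrophages in all 4 libraries. After thinning to 1000 UMIs, with barcodes that held a B cell gene kept, Ighm was found in 9.58% to 13.2% of T cells per library. The range was 0.144% to 1.09% in endothelial cells counted in the same way. Median depths were 6176 to 6766 UMIs in T cells.

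The number of Ighm UMIs for each Igkc UMI differed between cell types. In B cells without the 5 barcodes, there were 0.305 and 0.253 Ighm UMIs for each Igkc UMI in WT, compared with 0.291 and 0.287 in ERG CKO. In T cells with no B cell gene there were 24.2 and 36.0 in WT, compared with 11.3 and 11.2 in ERG CKO. In endothelial cells the ratio was 1.2 and 0.250 in WT, compared with 0.316 and 0.214 in ERG CKO, from 30 to 141 member UMIs per library, and in alveolar macrophages 0.286 and 0.500 in WT, compared with 0.235 and 0.222 in ERG CKO. Of all member UMIs in T cells, Ighm took 94.4% (Wilson 90.6 to 96.7) and 94.7% (89.96 to 97.3) in WT and 85.0% (80.4 to 88.6) and 86.6% (80.0 to 91.3) in ERG CKO. The mix thus differed between cell types of 1 library, and that in endothelial cells and alveolar macrophages was nearer to that of B cells than the mix of T cells was. Ighd, which lies just downstream of Ighm, had 0.624 to 1.30 CPM in all these barcodes.

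**Figure D5:**
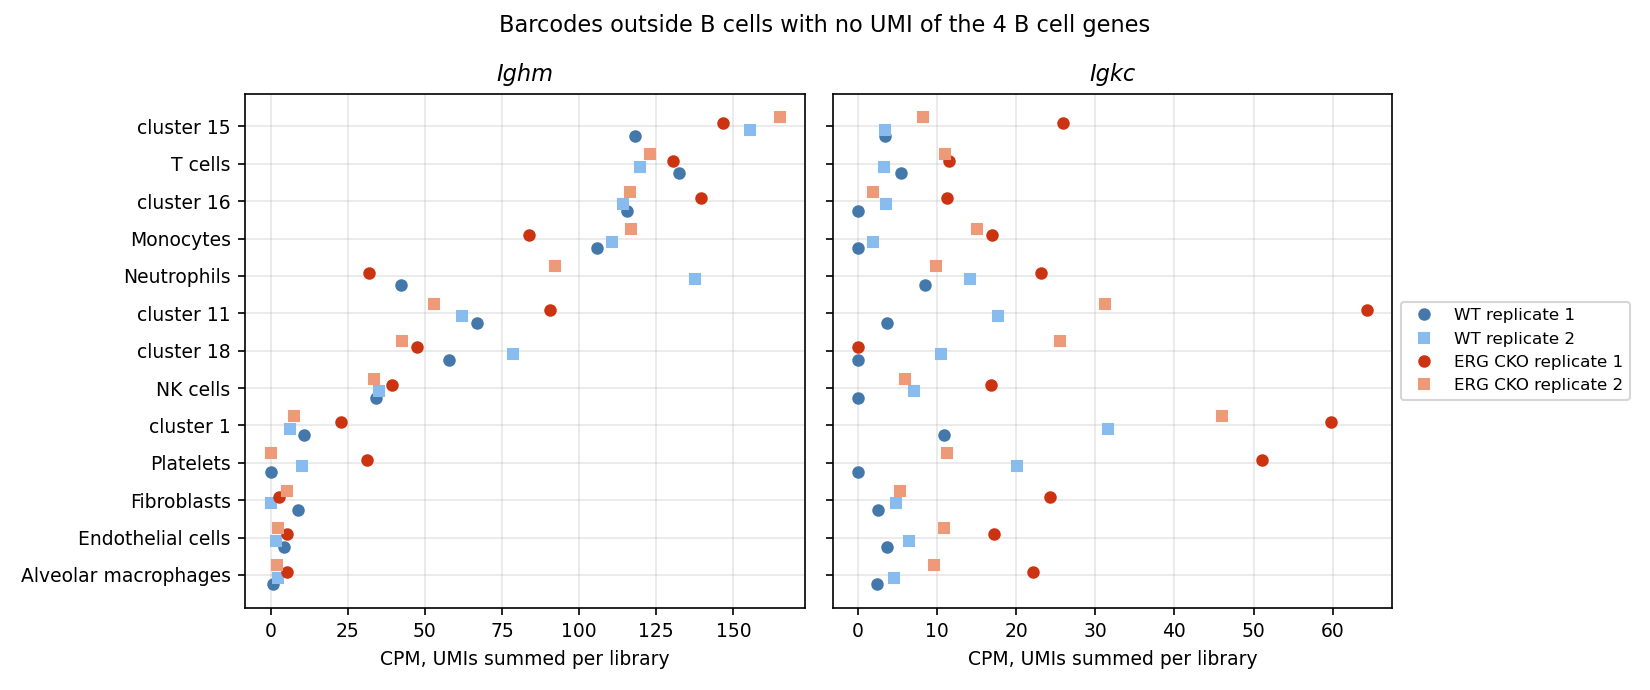
Ighm (left) and Igkc (right) in CPM of the UMIs summed per library, in 13 classes and clusters outside B cells, ordered by mean Ighm and counted in barcodes with no UMI of the 4 B cell genes and without the Jchain-rich ones. Ighm lies between 120 and 132 CPM in T cells and between 1.60 and 5.42 CPM in endothelial cells, and Igkc lies at or under 11.5 CPM in T cells.

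Within single classes 1 of 16 tests of a member passed. This was Igkc in monocytes, at 58.4 and 58.0 CPM in WT and 15.98 and 15.3 CPM in ERG CKO (log2 fold change -1.96, SE 0.22, adjusted p = 0.048), in a fit where 1 of 7922 genes passed (0.0126%). It turned when barcodes with a B cell gene were left out. Igkc then had 0 and 1.89 CPM in WT and 16.9 and 15.02 CPM in ERG CKO in monocytes, a log2 fold change of 3.47 (SE 0.66, adjusted p = 0.337), and 0 of 13 tests of a member passed. The fits of single classes then passed from 0% (monocytes) to 3% (endothelial cells) of all their genes. Of the 46 and 104 Igkc UMIs of WT monocytes, 0 and 3 were left, and of the 27 and 17 of ERG CKO monocytes, 24 and 14.

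In the whole suspension the members carried the sum of these parts, and fewer cells of a type and less RNA per cell cannot be told apart there. Igha had 1.495 and 0.226 CPM in WT and 487 and 468 CPM in ERG CKO, and the 5 barcodes held 98.8% and 99.3% of its UMIs in ERG CKO. Jchain had 0.272 and 0.0752 CPM in WT and 267 and 124 CPM in ERG CKO, of which they held 98.7% and 99.0%. Igkc had 448 and 764 CPM in WT and 1995 and 1945 CPM in ERG CKO, of which they held 63.1% and 57.4%. Of the 7 members 0 passed among 14154 genes, none of which passed (0%) in edgeR, with 1077 at an unadjusted p under 0.05. Igha and Jchain had the same adjusted p of 0.054, and DESeq2, which passed 160 genes (1.13%), passed Igha, Igkc and Jchain. Ighm had 174 and 238 CPM in WT and 297 and 286 CPM in ERG CKO (log2 fold change 0.49, SE 0.19, adjusted p = 0.642). Without the 5 barcodes the log2 fold changes were 2.45 (SE 0.70, adjusted p = 0.516) for Igha, 3.71 (SE 0.80, adjusted p = 0.360) for Jchain and 0.36 (SE 0.28, adjusted p = 0.922) for Igkc. With and without these barcodes, Jchain passed the filter on low counts only through the ERG CKO libraries, so its tests add nothing to its values.

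The calls of members moved with the settings, as did those of all genes. Wherever the filter on low counts was used, Jchain passed it only through the ERG CKO libraries, so its calls add nothing to its values. In B cells Igha, Igkc and Jchain passed with no filter (53 genes passed, 0.387%), with WT replicate 2 left out (0.26%), with either ERG CKO replicate 1 (0.33%) or 2 (0.807%) left out, with no doublets (0.549%) and with no TMM (0.278%). Iglc1 passed with them without WT replicate 1 (0.206%), and Igkc did not pass when the replicate number was a block (0.425%). Outside B cells Igha and Jchain passed with no filter (175 genes, 0.885%), and these and Igkc without ERG CKO replicate 2 (6 genes, 0.0415%). No member passed there with the block (0.0796%) or without ERG CKO replicate 1 (0.183%). In the whole suspension Igha, Igkc and Jchain passed with no filter (0.683%), Jchain alone with the block (0.00707%), and Igha alone without WT replicate 1 (0.00696%) or WT replicate 2 (0.0068%). Igha and Jchain passed there when either ERG CKO replicate 1 (0.173%) or 2 (0.0953%) was left out.

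Receptors of immunoglobulins differed in the cells that held them. Fcmr, a receptor of IgM, had 633 to 797 CPM in B cells and 0 to 0.524 CPM in T cells with no B cell gene. Fcer2a, the low-affinity IgE receptor, had 172 to 263 CPM in B cells. Fcgr2b, the inhibitory IgG receptor, had 54.8 to 86.2 CPM in B cells, 113 to 187 CPM in monocytes and no UMI in T cells with no B cell gene. Pigr, which carries polymeric IgA and IgM, had 0 to 16.5 CPM in epithelial cells with no B cell gene, a class of 12 to 43 such barcodes per library. Fcamr, a receptor of IgA and IgM, had no UMI in B cells.

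Over 56 profiles (14 classes and clusters in 4 libraries), the genes whose level was most like that of Igkc were Cd79a (Pearson r 0.90 on the log2(CPM + 1) scale), Fcmr (0.90) and Gm43291 (0.87). For Ighm they were Prkcb (0.80), Btla (0.80) and Fau (0.80), genes not limited to B cells. For Igha they were Mzb1 (0.68), Trim7 (0.66) and Gm20506 (0.66), and for Jchain Il5ra (0.63), Mzb1 (0.62) and AC125149.3 (0.61). Without the 5 barcodes Mzb1 was no longer among the 3 of either gene. Profiles of 1 library share its depth and its free RNA, so these values describe the pattern only.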

How the data were processed

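Whole-lung cells of 4 mice were encapsulated on the 10x Genomics platform by the authors and sequenced on an Illumina NextSeq instrument. The authors deposited raw UMI counts for each gene and barcode, made with Cell Ranger 3.1.0 on mm10 according to the submitters' processing notes. The annotation release and chemistry are not given in the sources used here, which also name different dissociation enzymes. The lowest barcode held 500 UMIs, and no barcode was removed. Groups came from the genotype labels, with 1 mouse per library.

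Barcodes were clustered in Seurat 5.3.0 (2000 variable genes without 148 immunoglobulin genes, Jchain among them, alignment of libraries, 30 dimensions, resolution 0.8) and named from marker lists where at least 3 markers held. Since cell names were rebuilt, they can differ from those of the study. Doublets were called with Scrublet in scanpy 1.11.5 and kept. UMI counts were summed per library and class. The sums were fitted in R 4.3.3 by the quasi-likelihood method of edgeR 4.0.16 (TMM, filterByExpr, Benjamini-Hochberg adjusted p of at most 0.05), with DESeq2 1.42.0 as an alternative, and shares were compared by exact permutation tests. The fitting was tested on simulated data. UMIs are not scaled by gene length, so levels of different genes were not ranked. A level of 0 was bounded by 3 UMIs per library.

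The members and lists were chosen with earlier results of these data known. Named were all members, list genes that passed or were among the 4 highest of a list in B cells, the 10 genes of smallest p in B cells, and the 3 genes most alike to each of Ighm, Igkc, Igha and Jchain. Ighe was not analysed here, and some genes of the lists are not reported here. The alternatives without the Jchain-rich barcodes were chosen after seeing the data.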

Additional observations from a re-analysis of the deposited data

How the results depend on the processing

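With 2 libraries per group, each call leans on single libraries, and 4 of the 5 Jchain-rich barcodes, those in the B cell cluster, decided the B cell result. Left out, they took the members that passed in B cells from 3, Jchain among them, to 0. Of all genes tested, 0.293% passed with them and 0.0895% without. Without these barcodes 0 members also passed with no TMM (0.134% of all genes), no filter (0.228%), DESeq2 (0.0597%) or the replicate block (0.134%). Igkc in B cells changed by -0.014 without them. It did not pass with the replicate block (1.33, adjusted p = 0.132, edgeR), when thinned (0.44, adjusted p = 0.963), with B cells taken by a gate (1.25, adjusted p = 0.216) or with the highest barcode of each library left out (0.46, adjusted p = 0.840).

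Outside B cells 2 members passed with no filter, with the 5 barcodes (0.885% of all genes) or without them (0.916%). In the whole suspension 3 passed with no filter (0.683% of all genes), 3 with DESeq2 (1.13%), 2 when thinned (0.381%) and 1 with the replicate block (0.00707%). In the edgeR fit without the 5 barcodes 0 members passed, and 0% of all genes. List genes that passed in B cells went from 1 (0.293% of all genes) to 3 with no filter (0.387%) and to 2 with at most 10% mitochondrial UMIs (0.377%). They went to 0 with no TMM (0.278%), DESeq2 (0.103%), thinning (0.315%), the gate (0.0544%) or without the 5 barcodes (0.0895%). In other classes 1 became 0 without barcodes with B cell genes. Barcodes of the plasma gate were 98 with 3 markers and 32 with 5. The Ighm share of member UMIs outside B cells, a mean of 52.5%, was 76.1% without barcodes with B cell genes. When a library was left out, the difference in the share of B cells ranged from -0.599 to 1.72 percentage points and that of lambda cells from -0.545 to 1.53.

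Of the members that did not pass, some turned in sign. Leaving out 1 library, the log2 fold changes ranged from -0.31 to 0.016 for Iglc2 in B cells. Outside B cells they ranged from -0.83 to 0.71 for Ighd, from -1.16 to 2.95 for Iglc1 and from -0.083 to 1.87 for Iglc2, which was -1.58 with the gate. In the whole suspension they ranged from -0.34 to 0.48 for Ighd, from -0.73 to 0.63 for Iglc1 and from -0.17 to 0.76 for Iglc2. There Ighd was -0.0012 without doublets, -0.031 with at most 10% mitochondrial UMIs, -0.083 when thinned and -0.0035 without the barcodes of the plasma gate, and Iglc1 was 0.125 with the highest barcode left out. The causes were not tested. Same-numbered libraries correlated at 0.05 to 0.16 in their deviations over genes, and with 2 pairs the numbers were not taken to pair the mice.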
